A study of Mus musculus with 9 samples.

Results

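Histone acetyltransferases were examined as a set of 9 genes: Kat2a, Kat2b, Ep300, Crebbp, Kat5, Kat6a, Kat6b, Kat7 and Kat8. They were the rows of the count table whose Ensembl identifier carries one of these symbols. The symbols themselves were chosen with earlier results of these data known. All 9 were found among 48526 gene identifiers, and 9 of 9 passed the expression filter that left 18858 genes to test. The libraries came from neural stem cells (NSCs) of the subependymal zone (SEZ) of wild-type C57BL/6 mice (C57BL/6J in the study's methods) that were 2 to 4 months old. The cells were grown as neurospheres with EGF and FGF, and differentiation was induced on an adhesive substrate with FGF and without EGF. For cells fixed soon after induction, the study's methods describe a first seeding in medium with EGF and FGF. Whether this held for these libraries, and so whether plating also differed between 0 h and the later groups, is not stated. Cells were collected at 0 h, before induction, and at 1 h and 6 h, with 3 libraries per time point. All groups had the same genotype. The 0 h cells came from medium with EGF, and the cells at 1 h and 6 h from medium without it. Time and EGF withdrawal therefore cannot be told apart between 0 h and the later groups. The sources used here do not say how many animals went into a culture, nor what libraries with the same replicate number share. Tests over replicates therefore measure the spread between these libraries, which may be technical in part.

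Histone acetyltransferases transfer an acetyl group from acetyl-CoA to lysines of histone tails, a mark of open and transcribed chromatin that histone deacetylases remove. They fall into families: the GNAT enzymes Kat2a (GCN5) and Kat2b (PCAF), which work in the SAGA and ATAC complexes; the coactivators Ep300 (p300) and Crebbp (CBP), which many transcription factors recruit to enhancers; and the MYST enzymes Kat5 (TIP60), Kat6a (MOZ), Kat6b (MORF), Kat7 (HBO1) and Kat8 (MOF). Crebbp and Kat6b are known for their roles in brain development, and mutations of either cause intellectual disability syndromes in humans.

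Library totals lay between 65871454 and 105592597 counts, and each of the 9 genes had between 1899 and 31309 counts in a library, so counting error was small. The cultures carried NSC markers, with 10 of 10 listed genes (Nes and Sox2 among them) at a mean of at least 1 CPM (counts per 1000000 counts of the scaled library) and a sum of 6794 to 9653 CPM. Microglial and endothelial markers were each under 1 CPM, with sums of at most 0.526 and 0.366 CPM. Neuronal markers summed to between 835 and 1567 CPM, most of it Map2, while the neuroblast marker Dcx reached at most 1.78 CPM. Mean Syt1, Tubb3, Rbfox3 and Snap25 were 22.8, 3.76, 2.37 and 1.81 CPM at 0 h. At 6 h these means were higher, at 70.3, 7.83, 5.48 and 2.55 CPM. The mean of Map2 was 1133 CPM at both times, and that of Dcx was 1.08 and then 0.811 CPM. Astrocyte markers summed to between 199 and 411 CPM, nearly all of it Aldh1l1 and Gja1. Gfap, Aqp4 and S100b reached at most 1.63, 3.17 and 3.33 CPM. Ependymal markers summed to between 37.7 and 92.5 CPM, nearly all of it Foxj1, and Tmem212 reached at most 0.0271 CPM. The oligodendrocyte lineage list was highest at 6 h, with sums of 727 to 866 CPM against 559 to 715 CPM at 0 h; nearly all of it was Olig2, and Sox10, Mbp and Mog had means under 1 CPM. The part of these neuronal and oligodendrocyte marker differences in the results at 6 h was not tested. One library stood apart for long transcripts. In 1 h replicate 3 the 1395 tested genes with a longest transcript of 7000 bases or more had a median log2 difference from 0 h replicate 3 of -0.25, against 0.02 for the other 17390 genes. The corresponding medians of long genes were 0.00 in replicate 1 and -0.02 in replicate 2. Ep300, Crebbp, Kat6a and Kat6b have such long transcripts (7699 to 10820 bases), and all 4 had their lowest value in that library, as did Kat2b (longest transcript 4653 bases). At 6 h against 1 h the medians in replicate 3 were 0.21 for long genes and -0.02 for the others. The part of this library property in their results at 1 h, and at 6 h against 1 h, was not tested. Fits with and without that library are given below for some of these genes.

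Levels between genes were compared per length, as RPKM (CPM per kilobase of merged exons). At 0 h Kat6a was highest, with a mean RPKM of 33.6 ± 2.97 (SD, n = 3), followed by Kat2a at 27.3 ± 2.02 and Kat7 at 21.7 ± 0.0202. Kat5 had 11.1 ± 0.464 RPKM, Kat8 9.72 ± 0.398, Ep300 8.67 ± 0.917 and Kat2b 7.61 ± 0.895. Crebbp had 4.96 ± 0.506 RPKM and Kat6b, the lowest, 2.99 ± 0.31. The ranges over the libraries at 0 h overlapped between Kat8 and Ep300 and between Ep300 and Kat2b, and not between the other neighbours in this order. The 3 highest and the 2 lowest genes kept their ranks at 1 h and 6 h. At 1 h the ranges of Kat6a and Kat2a overlapped, as did those of Kat2b and Ep300, and at 6 h the range of Ep300, then at a mean of 10.2 ± 0.749 RPKM, overlapped those of Kat5 and Kat8. The order depends on the length used: per kilobase of the longest transcript, Kat7 was second at 0 h with 33.8 ± 0.0314 RPKM, next to Kat6a with 33.9 ± 2.99. Among the 18858 tested genes, the mean RPKM over 9 libraries placed the acetyltransferases between the 49.4 percentile (Kat6b) and the 91.7 percentile (Kat6a).

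**Figure D1:**
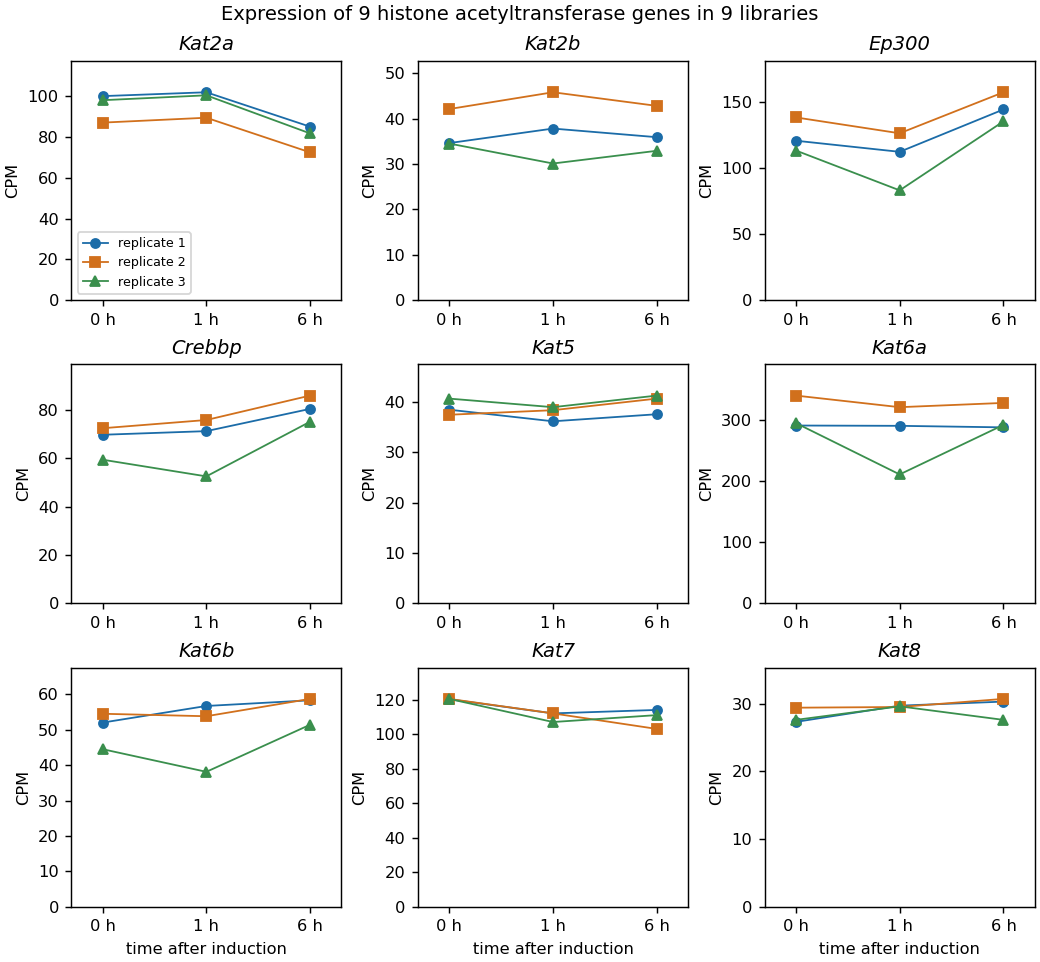
CPM of each acetyltransferase gene over time, with every axis starting at 0 and lines joining libraries with the same replicate number. Kat2a is lower at 6 h in all 3 replicate numbers, Ep300 is highest at 6 h in all 3, and the 1 h value of replicate 3 is low for Ep300, Crebbp, Kat6a and Kat6b.

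The first question was whether any acetyltransferase gene moved within 1 h of the induction. In the quasi-likelihood test of edgeR with time as the only factor, 0 of 9 genes were called at 1 h against 0 h (adjusted p under 0.05 by Benjamini-Hochberg over all tested genes), where 0.0424% of all tested genes were called. No acetyltransferase had an unadjusted p under 0.05 in this test. Libraries with the same replicate number deviated together, and in the fit that took the replicate number as a block and called 3.51% of all tested genes, again 0 of 9 were called, with 3 (Ep300, Kat6a and Kat7) at an unadjusted p under 0.05 and a smallest adjusted p of 0.101. DESeq2 called 0 of 9 genes without the block and 1 with it, Ep300, as lower. For 6 h against 0 h the test without the block called 0 of 9 genes, against 2.42% of all tested genes, with 1 gene, Kat2a, at an unadjusted p under 0.05. With the block, 2 of 9 rose (Ep300 and Crebbp) and 2 fell (Kat2a and Kat7), against 17.4% of all tested genes higher and 17.5% lower. For 6 h against 1 h the test without the block called 0 of 9, against 2.14% of all tested genes, with Kat2a and Ep300 at an unadjusted p under 0.05. With the block, 3 of 9 rose (Ep300, Crebbp and Kat6b) and 1 fell (Kat2a), against 18.0% higher and 17.5% lower. The blocked calls, 4 of 9 in either comparison, thus stood beside 34.9% and 35.6% of all tested genes, and the count is no result about the acetyltransferases as a set. DESeq2 with the block also called 4 of 9 in either comparison, and 0 of 9 without it. The comparisons share libraries, those of 6 h in one case and of 0 h or 1 h in the others, so that they are not independent of one another.

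**Figure D2:**
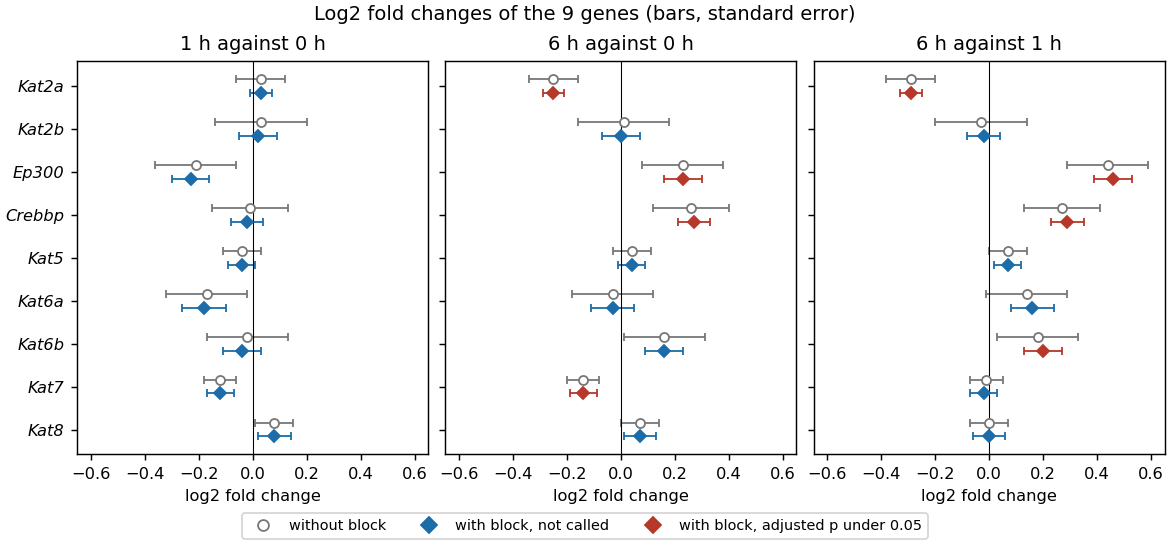
Log2 fold changes of the 9 genes in 3 comparisons, with bars of 1 standard error, from the edgeR fits without the replicate block (open circles) and with it (diamonds, red where the adjusted p is under 0.05). The estimates of the fits lie close together and the bars are shorter with the block; Kat2a is lower and Ep300 and Crebbp are higher in both comparisons with 6 h.

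Kat2a (GCN5), an acetyltransferase subunit of SAGA and ATAC, was lower at 6 h than at either earlier time in every replicate number. It is ENSMUSG00000020918, on chromosome 11 from 100704746 to 100712465 on the minus strand (GRCm38), and no other annotated gene overlaps it. Its level was 100.1, 87.1 and 98.1 CPM in replicates 1, 2 and 3 at 0 h, then 102, 89.5 and 100.5 CPM at 1 h, and 85.1, 72.5 and 81.8 CPM at 6 h. The libraries at 6 h were all below those at 0 h and 1 h, while 0 h and 1 h overlapped; 25.0% of all tested genes had groups apart at 6 h against 0 h and 22.2% at 6 h against 1 h. The log2 fold change at 6 h against 0 h was -0.25 (standard error, SE, 0.09; adjusted p = 0.194, edgeR), and with the block -0.25 (SE 0.04, adjusted p = 7.6e-04, edgeR), a fold of 0.839. It was lower in 3 of 3 replicate numbers, by log2 differences of -0.23, -0.26 and -0.26. Against 1 h the log2 fold change was -0.29 (adjusted p = 0.153 with edgeR without the block and 3.3e-04 with it). Every other fit with the block, 17 in all, called Kat2a lower at 6 h in both comparisons, with adjusted p of at most 0.0306 and 0.0171 by edgeR or DESeq2. After removal of each library's dependence on GC and transcript length, Kat2a was called without the block too, at 6 h against 0 h (log2 fold change -0.35, adjusted p = 0.0458, edgeR) and against 1 h (-0.36, adjusted p = 0.0388, edgeR). Of the sum of squares of its log2 CPM, 66.6% went with time and 33.1% with the replicate number, where the medians over all tested genes were 26.9% and 48.9%.

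Kat2a and Kat7 were the 2 genes that were lower at 6 h with the block, and both lie on chromosome 11, so the bases before their start sites are shown. These are the 150 bases before the RefSeq start (GRCm38.p6, minus strand, written 5′ to 3′), which overlap no annotated exon. The Kat2a stretch is chr11:100712468-100712617 and the Kat7 stretch is chr11:95310247-95310396. Capitals mark matches, on either strand, to the CRE half-site TGACG and the CCAAT box CCAAT, and the stretches were also searched for the GC box GGGCGG, the ETS core CCGGAA and the E-box CACGTG.
Kat2a: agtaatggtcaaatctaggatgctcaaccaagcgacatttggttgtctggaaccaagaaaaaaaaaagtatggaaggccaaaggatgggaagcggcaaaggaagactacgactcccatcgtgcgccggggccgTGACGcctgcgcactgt
Kat7: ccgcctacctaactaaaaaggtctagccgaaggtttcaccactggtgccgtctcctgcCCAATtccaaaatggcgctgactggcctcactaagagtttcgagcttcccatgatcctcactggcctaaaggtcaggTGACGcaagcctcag
Each stretch held 1 CRE half-site, and the Kat7 stretch also held a CCAAT box. Over the 250 bases before the start, 5 of the 8 acetyltransferase genes with a RefSeq window (Kat2a, Kat2b, Kat5, Kat7 and Kat8) held TGACG, against 19.6% of 20595 promoters, and 4 of 8 held GGGCGG (39.4% of promoters), Kat6b with 8 matches. CCAAT was present in 4 of 8 (35.1%), while CCGGAA (14.2%) and CACGTG (6.41%) were present in 1 of 8 each. The RefSeq starts of Ep300, Crebbp and Kat6b lie 863, 593 and 18336 bases away from the outermost GENCODE start of the gene, so their windows describe another start site. Those of Kat2b and Kat5 lie 110 and 143 bases inside it, so that this many of their 250 bases belong to the annotated gene. A match is a description of the letters only.

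Kat2b (PCAF), the paralog of Kat2a, did not pass the test in any comparison. It is ENSMUSG00000000708, on chromosome 17 from 53566861 to 53672720, and Gm6919 overlaps it on the other strand. Its level was 34.6, 42.1 and 34.5 CPM at 0 h, 37.8, 45.8 and 30.1 CPM at 1 h, and 35.9, 42.8 and 32.9 CPM at 6 h. Replicate 2 was the highest at each time point and the 3 groups overlapped, with 88.5% of its sum of squares going with the replicate number. The log2 fold change at 6 h against 0 h was 0.00 with the block (SE 0.07, adjusted p = 0.98, edgeR). The log2 ratio of Kat2a to Kat2b in RPKM was 2.02, 1.53 and 1.99 at 0 h and 1.73, 1.24 and 1.80 at 6 h. The mean ratio was 1.85 ± 0.27 (SD, n = 3) at 0 h, 1.86 ± 0.39 at 1 h and 1.59 ± 0.30 at 6 h on the log2 scale. The groups overlapped, and the difference of -0.26 between 6 h and 0 h had an exact permutation p of 0.4 (two-sided, adjusted p = 0.6 over 9 comparisons of ratios), although the ratio was lower in 3 of 3 replicate numbers, by -0.29 to -0.19 (exact permutation within replicate numbers, p = 0.25, the smallest that 3 pairs can give). With 3 libraries against 3 the smallest p this test can give is 0.1.

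Ep300 encodes p300, a coactivator that acetylates histone H3 at enhancers. It is ENSMUSG00000055024, on chromosome 15 from 81585351 to 81652077 on the plus strand, where an exon of Gm23880 overlaps its exons on the same strand. It had 120.4, 138 and 113 CPM in replicates 1, 2 and 3 at 0 h, 112, 126 and 82.9 CPM at 1 h, and 144, 157 and 135 CPM at 6 h. In each replicate number the value was lowest at 1 h and highest at 6 h; the groups at 6 h and 1 h were apart, and the other groups overlapped. At 1 h against 0 h the log2 fold change with the block was -0.23 (SE 0.07, adjusted p = 0.101, edgeR), and the log2 differences were -0.11, -0.14 and -0.44, the last in the library with low values for long transcripts, without which the blocked value was -0.11 (adjusted p = 0.21, edgeR). Compared with 0 h, its log2 fold change at 6 h was 0.23 (SE 0.15, adjusted p = 0.497, edgeR), and with the block 0.23 (SE 0.07, adjusted p = 0.018, edgeR), an increase of 17.6%. That call was kept in 12 of 17 other fits with the block. It was lost when replicate number 1 or 2 was left out as a whole, and when 0 h replicate 1, 0 h replicate 2 or 6 h replicate 3 alone was, where the adjusted p reached 0.105 by edgeR. Compared with 1 h it was 0.44 (adjusted p = 0.171, edgeR), and with the block 0.46 (SE 0.07, adjusted p = 2.4e-04, edgeR). This call was kept in 17 of 17 other fits with the block, with log2 fold changes of 0.34 to 0.54. The log2 differences from 1 h were 0.36, 0.32 and 0.71, the last from 1 h replicate 3. Without that library the blocked value was 0.35 (adjusted p = 5.0e-05, edgeR).

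Crebbp encodes CBP, the paralog of p300 and the coactivator that binds phosphorylated CREB. It is ENSMUSG00000022521, on chromosome 16 from 4081328 to 4213997 on the minus strand. Its level was 69.7, 72.4 and 59.4 CPM at 0 h, 71.2, 75.8 and 52.5 CPM at 1 h, and 80.4, 85.9 and 75.1 CPM at 6 h. All libraries at 6 h lay above those at 0 h, while those at 1 h reached into the range of 6 h. The log2 fold change at 6 h against 0 h was 0.26 (SE 0.14, adjusted p = 0.397, edgeR), and with the block 0.27 (SE 0.06, adjusted p = 0.00601, edgeR), an increase of 20.2% that was seen in 3 of 3 replicate numbers. Against 1 h it was 0.29 with the block (adjusted p = 0.00366, edgeR, and 0.369 without the block). Both calls were kept in 17 of 17 other fits with the block, but the value against 1 h ranged from 0.18 to 0.35. The log2 differences from 1 h were 0.17, 0.18 and 0.52, the last from 1 h replicate 3, and the blocked fit without that library gave 0.19 (adjusted p = 0.00604, edgeR). At 1 h against 0 h the log2 fold change with the block was -0.02 (adjusted p = 0.883, edgeR).

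The balance between the paralogs was also followed. The log2 ratio of Ep300 to Crebbp in RPKM was 0.71, 0.86 and 0.85 at 0 h, 0.57, 0.65 and 0.58 at 1 h, and 0.76, 0.79 and 0.78 at 6 h. Each value at 1 h was below every value at 0 h and 6 h. The mean at 1 h was lower than that at 0 h (log2 difference -0.20), and the mean at 6 h was higher than that at 1 h (0.17), each with the smallest exact permutation p that 3 against 3 libraries can give, 0.1 (two-sided, adjusted p = 0.45). Exact permutation within replicate numbers, added after seeing the data, cannot go below 0.25 with 3 pairs and gave 0.25 for both, so neither exact test could pass the threshold. Ratios within a library do not depend on its scaling, but they do not remove a trend with transcript length.

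**Figure D3:**
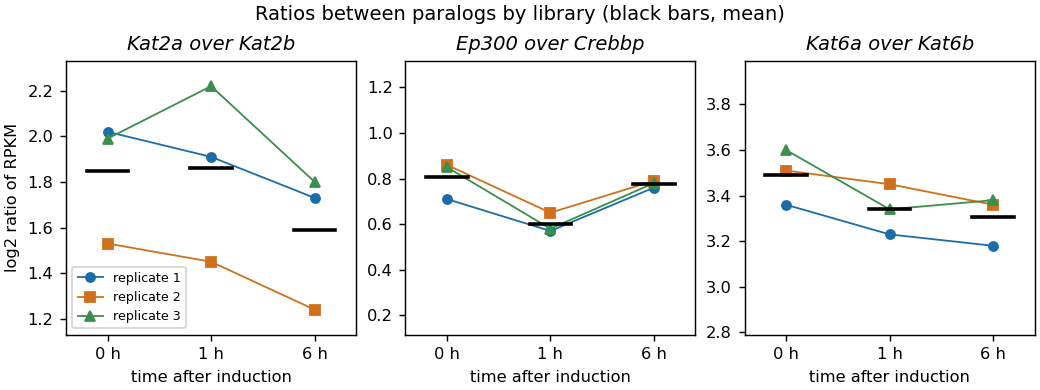
Log2 ratio of RPKM between paralogs in each library by time point, with each panel spanning the same height on the log2 axis and black bars at the means. The ratio of Ep300 to Crebbp lies between 0.57 and 0.65 at 1 h and at 0.71 or above at the other times; the ratio of Kat2a to Kat2b differs more between replicate numbers than between times.

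Kat6a (MOZ) had the most counts of the 9 genes, at the 97.1 percentile of mean CPM among tested genes. It is ENSMUSG00000031540, on chromosome 8 from 22859535 to 22943259. It had 291, 340.0 and 295 CPM at 0 h, 290.5, 321 and 211 CPM at 1 h, and 288, 328 and 292 CPM at 6 h. Apart from 1 h replicate 3 the values of a replicate number were close to one another, and the groups overlapped. The log2 fold change at 6 h against 0 h was -0.03 with the block (SE 0.08, adjusted p = 0.836, edgeR), and that at 1 h against 0 h was -0.18 (SE 0.08, adjusted p = 0.255, edgeR). At 6 h against 1 h it was 0.16 with the block (SE 0.08, adjusted p = 0.155, edgeR). This difference was called in 2 of 17 other fits with the block, with log2 fold changes of 0.01 to 0.25. Without 1 h replicate 3 the blocked value was 0.01 (adjusted p = 0.869, edgeR).

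Kat6b (MORF), the paralog of Kat6a in the same kind of complex with BRPF proteins, is ENSMUSG00000021767 on chromosome 14 from 21481434 to 21672478. Its level was 52.0, 54.5 and 44.5 CPM at 0 h, 56.7, 53.8 and 38.1 CPM at 1 h, and 58.3, 58.7 and 51.4 CPM at 6 h. It was highest at 6 h in each replicate number, and the groups overlapped. With the block, the log2 fold change was 0.20 at 6 h against 1 h (SE 0.07, adjusted p = 0.0412, edgeR, and 0.616 without the block) and 0.16 at 6 h against 0 h (SE 0.07, adjusted p = 0.0888, edgeR). The call against 1 h was kept in only 6 of 17 other fits with the block, with log2 fold changes of 0.08 to 0.28. The difference from 0 h was called in 3 of these 17 fits, among them that without 1 h replicate 3 (0.16, adjusted p = 0.00846, edgeR). The call against 1 h was lost without 0 h replicate 2 or 3, 1 h replicate 2 or 3, or any 1 of the 6 h libraries. That call was also lost without replicate number 2 or 3 as a whole, with RLE scaling and with only the 6 libraries compared. Over the 17 fits its adjusted p reached 0.241 by edgeR or DESeq2. The log2 ratio of Kat6a to Kat6b in RPKM was 3.49 ± 0.13 (SD, n = 3) at 0 h, 3.34 ± 0.11 at 1 h and 3.30 ± 0.11 at 6 h. It was lower at 6 h than at 0 h in 3 of 3 replicate numbers, by -0.22 to -0.16 (exact permutation p = 0.3, two-sided, adjusted p = 0.6, and 0.25 within replicate numbers). The size of the ratio depends on the length used: at 0 h Kat6a was 11.2 times Kat6b per kilobase of merged exons and 5.18 times per kilobase of the longest transcript.

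Kat7 (HBO1), which acetylates histone H3 and H4 with JADE or BRPF scaffolds and is tied to replication origin licensing, is ENSMUSG00000038909 on chromosome 11 from 95274259 to 95310246. It had 120.2, 120.4 and 120.4 CPM at 0 h, 112, 112 and 107 CPM at 1 h, and 114, 103 and 111 CPM at 6 h. The libraries at 1 h and at 6 h were all below those at 0 h, which had an SD of 0.112 CPM (n = 3), and 8.24% of all tested genes had groups apart at 1 h against 0 h. The log2 fold change at 1 h against 0 h was -0.12 with the block (adjusted p = 0.21, edgeR). The value at 6 h against 0 h was -0.14 (SE 0.06, adjusted p = 0.294, edgeR), and with the block -0.14 (SE 0.05, adjusted p = 0.0464, edgeR). That call was kept in 6 of 17 other fits with the block, with log2 fold changes of -0.16 to -0.08. Leaving out any 1 library other than 1 h replicate 3 ended it, as did library totals and leaving out replicate number 1 or 2, the adjusted p reaching 0.417 by edgeR or DESeq2 over all 17 fits.

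Kat5 (TIP60) and Kat8 (MOF), the catalytic subunits of the NuA4 complex and of the MSL and NSL complexes, passed the test in no comparison. Kat5 is ENSMUSG00000024926 on chromosome 19 from 5603014 to 5610237, with exons that overlap those of Rnaseh2c on the other strand, and Kat8 is ENSMUSG00000030801 on chromosome 7 from 127912516 to 127925837, with exons that overlap those of Prss8 on the other strand. The libraries were stranded, but the strand setting of the counting is not given in the sources used here, so reads of such partners may be included. Kat5 had 38.4, 37.4 and 40.6 CPM at 0 h, 36.1, 38.3 and 38.9 CPM at 1 h, and 37.5, 40.6 and 41.2 CPM at 6 h. Kat8 had 27.3, 29.4 and 27.6 CPM at 0 h, 29.7, 29.5 and 29.6 CPM at 1 h, and 30.3, 30.7 and 27.6 CPM at 6 h. The groups of Kat5 overlapped, and those of Kat8 were apart only at 1 h against 0 h, where its log2 fold change was 0.08 with the block (adjusted p = 0.52, edgeR). Over all libraries Kat5 spanned 0.19 and Kat8 0.17 on the log2 CPM scale, against 0.92 for Ep300.

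The 9 genes did not move as one. Their median log2 fold change at 6 h against 0 h was 0.04 with the block, with 4 higher and 3 lower in 3 of 3 replicate numbers, where 31.5% and 31.7% of all tested genes were so. The sum over the 9 genes lay between 833 and 922 CPM in the 0 h libraries and between 849 and 919 CPM in the 6 h libraries. The 1 h libraries had 847, 892 and 690.5 CPM in replicates 1, 2 and 3. After subtraction of the mean of each replicate number from log2 CPM, Pearson's r over the 9 libraries was 0.91 between Ep300 and Crebbp, 0.94 between Crebbp and Kat6b and 0.90 between Ep300 and Kat6b. Kat2a ran opposite to them, with r of -0.90 with Crebbp and -0.85 with Ep300, and 0.05 with its paralog Kat2b. These values describe 9 libraries that share time points and the low long transcripts of 1 h replicate 3. Among 13605 genes with a mean of at least 1 CPM, those closest to Kat2a by this measure were Cfap300 (r = 0.998), Ddx19a (0.997) and Uba2 (0.997), a subunit of the SUMO-activating enzyme. Those closest to Crebbp, whose log2 fold change at 6 h against 0 h was the largest in size of the 9 by 0.01 in the fit without the block (with GC and length trends removed that of Kat2a was larger, -0.35 against 0.27), were Snph (0.997), Map1a (0.993) and the chromatin remodeler Chd7 (0.993). In bulk RNA a smaller share of expressing cells and less RNA per cell cannot be told apart.

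The subunits and opponents of these enzymes were described over 10 lists with 112 genes, all of them tested. Without the block, 0 of 112 were called at 1 h against 0 h, beside 0.0424% of all tested genes. At 6 h against 0 h, 4 rose and 0 fell (beside 2.42% called in either direction). At 6 h against 1 h, 4 rose and 1 fell (beside 2.14%). With the block, 4 were higher and 5 lower at 1 h against 0 h (beside 3.51% in either direction). The blocked counts were 21 higher and 28 lower at 6 h against 0 h (beside 17.4% and 17.5% of all tested genes). At 6 h against 1 h they were 30 higher and 23 lower (beside 18.0% and 17.5%). The background of 17.4% higher and 17.5% lower stands beside each of the list counts at 6 h against 0 h that follow, and nothing particular to a list is read from them. The medians of the 112 log2 fold changes with the block were -0.01, 0.00 and 0.01, and the medians over all tested genes were within 0.01 of 0. The complexes in which Kat2a works, with 20 SAGA and ATAC subunits, had 4 higher and 7 lower at 6 h against 0 h with the block, among them Taf5l, at 40.0 ± 4.46 CPM (SD, n = 3) and 28.7 ± 2.18 CPM (log2 fold change -0.48, adjusted p = 5.7e-05 with edgeR and the block, and 0.102 without it). Of the 15 NuA4 subunits around Kat5, 0 were higher and 6 lower at 6 h against 0 h with the block. Of the 9 subunits around Kat6a, Kat6b and Kat7, 0 were higher and 3 lower, with Ing5 at 34.0 ± 10.7 CPM and 20.9 ± 6.57 CPM (log2 fold change -0.70, adjusted p = 1.2e-06 with edgeR and the block, and 0.339 without it). The 11 MSL and NSL subunits around Kat8 had 1 higher and 3 lower. Among 10 other acetyltransferases 1 was higher and 5 lower with the block, and Hat1, which acetylates newly made histone H4, had 137 ± 9.6 CPM at 0 h and 98.8 ± 15.8 CPM at 6 h (log2 fold change -0.48, adjusted p = 6.4e-05 with edgeR and the block, and 0.115 without it). The 7 sirtuins had 2 higher and 0 lower, and the 11 acetyl-lysine readers 2 higher and 1 lower, in the same comparison and fit.

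Calls without the block fell in 3 of these lists, with log2 fold changes of at least 0.49 in size, while those of the 9 acetyltransferases were at most 0.44 in the same fit. Among 12 partners of CBP and p300, Cited2, which binds the CH1 domain of these coactivators, had 8.29 ± 1.56 CPM (SD, n = 3) at 0 h, 15.5 ± 1.48 CPM at 1 h and 7.31 ± 0.431 CPM at 6 h. Its fall between 1 h and 6 h passed the test (log2 fold change -1.09, adjusted p = 0.0151, edgeR), and its log2 fold change at 1 h against 0 h was 0.90 (adjusted p = 0.21, edgeR, and 1.1e-04 with the block). The coactivator Ncoa3 rose at 6 h against 1 h, with 35.5 ± 4.01 and then 49.8 ± 2.72 CPM (log2 fold change 0.49, adjusted p = 0.0445, edgeR). Among 11 histone deacetylases, Hdac5 and Hdac7, 2 of the 4 class IIa genes, rose at 6 h against 0 h. Hdac5 had 83.0 ± 18.0 CPM at 0 h, 127 ± 12.9 CPM at 1 h and 225 ± 11.2 CPM at 6 h (log2 fold change 1.44, adjusted p = 0.00724, edgeR), and Hdac7 had 35.2 ± 6.51, 40.8 ± 5.39 and 88.6 ± 18.8 CPM (1.33, adjusted p = 0.0185, edgeR). Both were also called at 6 h against 1 h. Of the other class IIa genes, Hdac4 had 57.0 CPM at 0 h and 56.3 CPM at 6 h and was not called, and Hdac9 had 9.47 and 46.1 CPM and was called higher only with the block. Of the class I genes, Hdac1 and Hdac2 had log2 fold changes of -0.27 and -0.22 and were called lower only with the block, while Hdac3 (0.03) and Hdac8 (-0.03) were not called in either fit. Among 6 genes of acetyl-CoA supply, Acly, the ATP citrate lyase, had 543 ± 88.1 CPM at 0 h and rose to 1068 ± 162 CPM by 6 h (0.98, adjusted p = 0.0339, edgeR). Acss2, the acetyl-CoA synthetase of nucleus and cytosol, rose from 76.4 ± 23.7 CPM to 205 ± 41.3 CPM (1.42, adjusted p = 0.0474, edgeR). For the rest of this list the blocked log2 fold changes at 6 h against 0 h follow. Acss1 (1.19) and Slc25a1 (0.67) were called higher only with the block, and Pdha1 (-0.01) and Dlat (0.07) were not called in either fit. Each call made without the block was also made in 18 of 18 fits with it. Without it, only the call of Hdac5 at 6 h against 0 h was kept in 15 of 15 alternatives, and the others in 4 to 9 of 15, with adjusted p of up to 0.181 by edgeR or DESeq2. Leaving out 1 library was enough to end each of these other calls, and for all of them 6 h replicate 1 or 6 h replicate 2 was such a library.

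**Figure D4:**
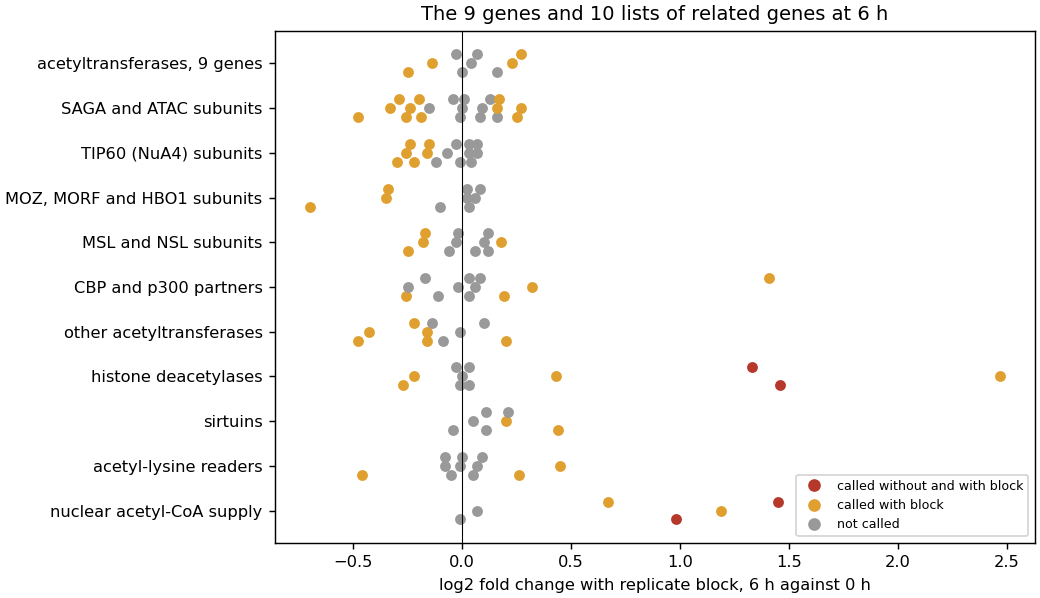
Log2 fold change at 6 h against 0 h, from the fit with the replicate block, of the 9 acetyltransferases (top row) and of 112 genes in 10 lists of related genes, 1 point per gene, coloured by whether the adjusted p was under 0.05 without and with the block. The acetyltransferases lie between -0.25 and 0.27, while Hdac5, Hdac7, Acss2 and Acly, called in both fits, lie at 0.98 or above. So do Acss1 (1.19) and Cited4 (1.41, with means under 1 CPM), which were called only with the block. The point furthest right is Hdac9 (2.47), which was named after its value was seen.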

How the data were processed

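The 9 libraries were 3 replicates each of cultured NSCs taken before (0 h), 1 h after and 6 h after the start of differentiation. The authors deposited raw counts of reads per Ensembl gene. According to the methods and the submitters' processing notes, stranded mRNA libraries were sequenced as paired ends, checked with FastQC and aligned and counted with STAR 2.5.3a on mm10 (GRCm38), and the authors tested with DESeq2 1.22.1. The strand setting is not given in the sources used here. Each of the 9 columns matched 1 library, and no pair of libraries had a chi-square below 13.6 per degree of freedom. Symbols, coordinates and lengths came from GENCODE M21, which held 48144 of the 48526 identifiers, and promoter sequences from RefSeq (GRCm38.p6), where 8 of 9 genes had a window.

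Counts were analysed with R 4.3.3, edgeR 4.0.16 and DESeq2 1.42.0, and tables and figures with Python 3.11.15, pandas 2.3.3, scipy 1.17.1 and matplotlib 3.10.9. Genes were kept with filterByExpr (minimum count 10, minimum total 15) and libraries scaled by TMM. glmQLFit and glmQLFTest were run on the 9 libraries with time as the factor, and p-values were adjusted by Benjamini-Hochberg over all tested genes (threshold 0.05). CPM are counts per 1000000 of the scaled library size, RPKM are CPM per kilobase, and log2 CPM used a prior count of 2. The numbers pair the samples: deviations from time point means correlated at 0.733 to 0.8 in the 9 pairs of libraries with the same number. In the other 18 pairs they correlated at -0.462 to -0.314. The 3 deviations of a gene at a time point sum to 0, so these negative values follow from the positive ones. The biological coefficient of variation was 0.277, and 0.0627 with the block on replicate number. Alternatives were the block, DESeq2, RLE scaling, library totals, no filter, fits of the 6 libraries compared, removal of GC and length trends (splines with 4 degrees of freedom), and fits without a library or a replicate number. Fits with the block that left out 1 library and exact tests of ratios within replicate numbers were chosen after seeing the data, as was the length of 7000 bases for long transcripts. The members and lists were chosen with earlier results of these data known. Named were the 9 genes in every comparison, from each list up to 2 genes that rose and 2 that fell most among those past the threshold with 3 of 3 replicate numbers in 1 direction, of which the text gives a selection, marker sums, and the 3 genes most like Kat2a and Crebbp. Intron retention was not analysed here.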

Additional observations from a re-analysis of the deposited data

How the results depend on the processing

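Without the block, the number of acetyltransferase genes called stayed at 0 in each comparison with DESeq2, RLE scaling, library totals, no filter, fits of the 6 libraries compared and each library left out. It became 1 (Kat2a) in both comparisons with 6 h when GC and length trends were removed. With the replicate block it was 4 at 6 h against 0 h, 4 with RLE scaling, 4 with DESeq2, 3 with library totals, 5 in the 6 libraries compared and 5 with the trends removed. At 6 h against 1 h the blocked counts in this order were 4, 3, 4, 4, 3 and 5, and at 1 h against 0 h only DESeq2 with the block gave 1. In blocked fits without a replicate number or a library the counts ranged from 0 to 1 at 1 h against 0 h, from 2 to 5 at 6 h against 0 h and from 3 to 5 at 6 h against 1 h. The count at 6 h against 0 h was 2 without replicate 1, replicate 2, 0 h replicate 1, 0 h replicate 2 or 6 h replicate 3, and 5 without 1 h replicate 3. In the edgeR fit of all libraries with TMM scaling and trends kept, the block changed the calls named in the report. It changed no other call of these 9 genes in that fit. In other settings the block changed further calls. With trends removed, Kat6a at 6 h against 1 h was called higher with the block (log2 fold change 0.14, adjusted p = 0.0496, edgeR). Without the block its adjusted p was 0.521 (edgeR).

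Signs turned only among values that were not called, and the cause was not tested. At 1 h against 0 h, with trends removed, Crebbp had 0.04 without and with the block, and Kat6b 0.03 and 0.02. At 6 h against 0 h, with trends removed, Kat5 had -0.04 and Kat6a 0.02 in both fits, and Kat2b had -0.00 by DESeq2 with the block. At 6 h against 1 h, with library totals, Kat2b had 0.01 and 0.02, Kat7 0.02 and Kat8 0.03, and with no filter Kat8 had 0.01. The range over fits without 1 library, with no block, crossed 0 at 1 h against 0 h for Kat2a (-0.02 to 0.09), Kat2b (-0.13 to 0.18), Crebbp (-0.12 to 0.13) and Kat6b (-0.13 to 0.14). It crossed 0 at 6 h against 0 h for Kat2b (-0.10 to 0.11) and Kat6a (-0.08 to 0.05), and at 6 h against 1 h for Kat2b (-0.17 to 0.14), Kat6a (-0.02 to 0.28), Kat7 (-0.05 to 0.03) and Kat8 (-0.03 to 0.04). In blocked fits that left out a replicate number or a library, Kat2b had -0.01, -0.02 or -0.03 in 6 such fits at 1 h against 0 h and in 4 at 6 h against 0 h, and 0.01 to 0.04 in 5 at 6 h against 1 h (0.01, 0.02, 0.03 and 0.04). At 1 h against 0 h without replicate 3 and without 1 h replicate 3, Crebbp had 0.05 and 0.07 and Kat6b 0.06 and 0.07. Kat6a had 0.01, 0.02 and 0.04 in 3 such fits at 6 h against 0 h. At 6 h against 1 h Kat7 had 0.05, 0.02 and 0.04 without replicate 2, 1 h replicate 2 and 6 h replicate 2, and Kat8 had 0.04, 0.02 and 0.04 without replicate 3, 1 h replicate 3 and 6 h replicate 3.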
